A study of Mus musculus with 9 samples.

Results

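Neurexins, neuroligins and LRRTM proteins are cell adhesion proteins that organise synapses, and 8 of their genes were followed across a fibroblast-to-interneuron conversion. The 8 genes, chosen by name from 37224 in the count table, were the neurexin genes Nrxn2 and Nrxn3, the neurexin-like gene Cntnap2, the neuroligin genes Nlgn1, Nlgn2 and Nlgn3, and the leucine-rich repeat genes Lrrtm1 and Lrrtm2. Lrrtm3, Lrrtm4 and relatives of Cntnap2 were examined only among the partner genes. The remaining members of these families were not analysed here. RNA was sequenced from 3 kinds of C57BL/6 mouse cells with 3 libraries each. iGABA cells were passage-0 embryonic fibroblasts after 14 days in vitro of reprogramming, of which 2 were in fibroblast medium and the rest in neuronal medium, and they were sorted for GFP (replicates 4, 5 and 6). The study is known to have driven this conversion with 5 transcription factors, Sox2, Dlx5 and Lhx6 among them. The labels used here do not name a vector or the promoter of the GFP. GAD67 cells were interneurons of the cortex at day E18.5, sorted for GFP that reports Gad1, and not grown further (replicates 7, 8 and 9). MEF cells were primary fibroblasts of day E13.5 at passage 0, detached with trypsin and not sorted (replicates 1, 2 and 3). The MEF labels also mention a shift to neuronal inducing medium without saying whether RNA was taken before it.

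Neurexins sit mainly on the presynaptic side, where they reach across the cleft to neuroligins and LRRTM proteins on the postsynaptic side. Neuroligin 2 is the isoform best known from inhibitory synapses, neuroligin 1 and the LRRTM proteins are best known from excitatory ones, and neuroligin 3 is found at both. Each neurexin gene makes long alpha and shorter beta forms from separate promoters, and counts per gene cannot separate them. Cntnap2 encodes Caspr2, a neurexin-like protein best known for gathering potassium channels along myelinated axons.

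Library totals ran from 27501521 to 38975523 counts, and 18085 genes passed a filter on low counts, all 8 members included. Cntnap2 and Lrrtm2 passed through their iGABA and GAD67 libraries. Levels across libraries are given as CPM, which are counts scaled to a common library total with TMM factors, and levels of different genes as RPKM, the same value per kilobase of exon. A library without a count of a gene allows up to 3 counts, or 0.0717 to 0.110 CPM, and this limit covers counting error only. The summed level of 6 neuron markers was 608 to 622 CPM in iGABA, 6938.8 to 7399.6 CPM in GAD67 and 101 to 105 CPM in MEF libraries. The summed level of 8 GABAergic interneuron markers, among them Gad1, which the sort of GAD67 cells used, was 675 to 688 CPM in iGABA, 4097.7 to 4281.4 CPM in GAD67 and 8.97 to 10 CPM in MEF libraries. The 8 fibroblast markers summed to 707 to 998 CPM in iGABA, 124 to 132 CPM in GAD67 and 75874.3 to 84282.9 CPM in MEF libraries. Markers of each label were thus present. The interneuron markers include Dlx5 and Lhx6, which were delivered to make iGABA cells, and delivered and own copies were not told apart. Gad1 alone was at 405 CPM on average in iGABA cells. The interneuron sum is therefore no independent check of iGABA or GAD67 identity. Immune markers (5 genes) summed to 0.156 to 0.322 CPM in iGABA, 1.33 to 1.47 CPM in GAD67 and 83.1 to 85.8 CPM in MEF libraries, and 4 muscle markers to 0.334 to 0.844, 0.106 to 0.339 and 79.7 to 85.3 CPM in the same order. Mitochondrial genes took 4.0 to 4.36% of the counts in iGABA, 1.16 to 1.40% in GAD67 and 0.908 to 1.07% in MEF libraries. These sums move with the groups compared below, and their part in the results was not tested. In bulk RNA, fewer cells of a type and less RNA per cell cannot be told apart.

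The series set converted cells against the fibroblasts they came from and against interneurons of the brain. After conversion 7 of the 8 genes were higher in iGABA than in MEF cells and 1, Lrrtm1, was lower (edgeR, adjusted p under 0.05). All 8 were higher in GAD67 than in MEF cells, and all 8 were lower in iGABA than in GAD67 cells. The median log2 fold change over the 8 genes was 3.12 for iGABA against MEF, where the median of all genes tested was 0.05. The corresponding medians were 5.87 and 0.00 for GAD67 against MEF and -2.59 and 0.02 for iGABA against GAD67. Cntnap2 and Lrrtm2 passed the low-count filter only through their iGABA and GAD67 libraries. Their direction against MEF cells was thus fixed in advance. Both are part of the counts and medians against MEF, here and at 2-fold below, and are no support for them. The 2 comparisons with MEF share the MEF libraries, and those with iGABA share the iGABA libraries, so they are not independent. In each comparison the groups of libraries did not overlap for any of the 8 genes, which was also true of 84.9% of all genes tested for iGABA against MEF, 87.0% for GAD67 against MEF and 82.3% for iGABA against GAD67. That count of members is thus close to the background.

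These counts stand beside a background in which most genes differed. Of the 18085 genes tested, 42.1% were higher and 39.7% lower in iGABA than in MEF cells, 43.1% were higher and 43.8% lower in GAD67 than in MEF cells, and 41.3% were higher and 39.3% lower in iGABA than in GAD67 cells. At a difference of at least 2-fold, 7 members were higher and 0 lower in iGABA than in MEF cells, where 23.9% of all genes were higher and 23.8% lower. For GAD67 against MEF the members were 8 higher and 0 lower at 2-fold, where 28.5% of all genes were higher and 31.6% lower. For iGABA against GAD67 they were 0 higher and 7 lower at 2-fold, where 26.6% of all genes were higher and 20.0% lower. Nlgn2 was the member that differed by less than 2-fold there.

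**Figure D1:**
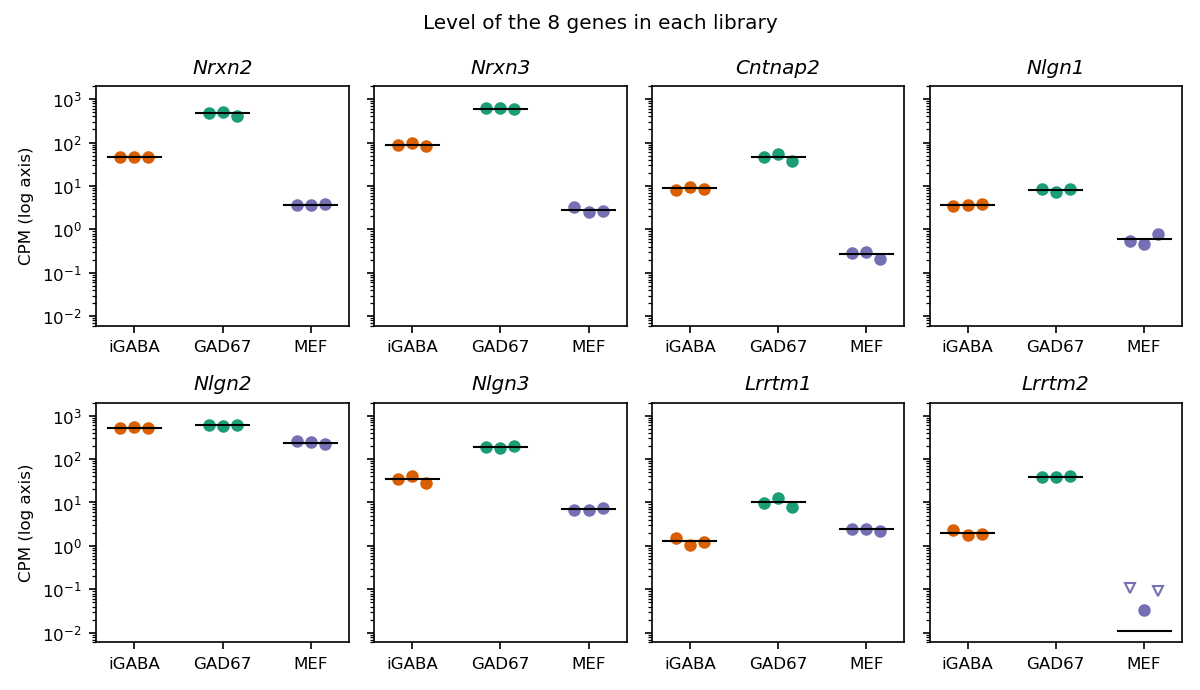
Level of each of the 8 genes in each library, in CPM on a log axis, with iGABA, GAD67 and MEF libraries from left to right in each panel and a black line at the group mean. Open triangles mark libraries with 0 counts, drawn at the level of 3 counts. Every gene was highest in GAD67 libraries, and Lrrtm1 was the gene with iGABA libraries (1.03 to 1.56 CPM) below MEF libraries (2.17 to 2.50 CPM).

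The stretch of 250 bases before the annotated start is shown for 4 genes, chosen because they moved differently between MEF and iGABA cells. Nlgn2 was already abundant in MEF cells, Nrxn3 and Cntnap2 were over 30-fold higher in iGABA cells, and Lrrtm1 was lower there. RefSeq promoters of the GRCm38.p6 build, which has the mm10 coordinates of the count table, were matched for 5 of the 8 members with 9 starts in all. Nrxn2, Nlgn3 and Lrrtm2 had no entry. Capitals mark matches, on either strand, to CAGCTG or the wider CANNTG, which includes it and is the core bound by basic helix-loop-helix factors. The motifs TAATTA of homeodomain factors such as Dlx5 and Lhx6, ACAATG and ACAAAG of Sox factors, and TGTTTAC of forkhead factors were searched in the same way and had no match in these 4 windows, though windows of other starts of Nrxn3 and Cntnap2 held matches to Sox motifs. Each line is written 5′ to 3′ on the gene's strand.
Nlgn2, chr11:69837785-69838034, minus strand, directly before the gene's start in the count table: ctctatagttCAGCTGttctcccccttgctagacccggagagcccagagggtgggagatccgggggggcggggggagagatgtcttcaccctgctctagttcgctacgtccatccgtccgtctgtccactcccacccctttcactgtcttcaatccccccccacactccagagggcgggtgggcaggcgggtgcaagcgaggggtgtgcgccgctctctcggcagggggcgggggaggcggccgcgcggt
Nrxn3, chr12:89812233-89812482, plus strand, before the most downstream of its 3 starts, inside the gene: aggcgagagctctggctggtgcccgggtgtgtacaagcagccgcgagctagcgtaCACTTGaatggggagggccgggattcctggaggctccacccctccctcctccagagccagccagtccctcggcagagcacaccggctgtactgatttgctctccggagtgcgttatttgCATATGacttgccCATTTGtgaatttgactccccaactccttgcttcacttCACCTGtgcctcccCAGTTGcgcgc
Cntnap2, chr6:45059811-45060060, plus strand, directly before the gene's start in the count table: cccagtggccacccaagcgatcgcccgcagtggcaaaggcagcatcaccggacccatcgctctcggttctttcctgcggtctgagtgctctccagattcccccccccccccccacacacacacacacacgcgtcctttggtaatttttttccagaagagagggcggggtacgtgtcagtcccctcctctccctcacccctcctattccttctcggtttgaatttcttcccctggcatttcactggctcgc
Lrrtm1, chr6:77242227-77242476, plus strand: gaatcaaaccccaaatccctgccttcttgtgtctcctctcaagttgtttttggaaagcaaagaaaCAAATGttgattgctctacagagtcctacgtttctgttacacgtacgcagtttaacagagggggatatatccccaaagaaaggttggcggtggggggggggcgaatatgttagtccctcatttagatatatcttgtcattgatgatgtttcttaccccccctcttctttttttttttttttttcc

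The Nlgn2 window held 67.6% G and C, the Nrxn3 window 60.0%, the Cntnap2 window 59.6% and the Lrrtm1 window 42.0%, where the median of 32851 RefSeq promoter windows of this length was 52.4%. The Nlgn2 window had 1 match to CAGCTG, which 13.0% of all windows held. The Nrxn3 window had 5 matches to CANNTG, where 66.2% of all windows held at least 1 and the mean was 1.16 matches. The windows of its other 2 starts, not printed, had 0 and 1 such matches, and 1 of them had 1 match to ACAAAG. The Lrrtm1 window had 1 such match and the Cntnap2 window shown none. The window of the second, downstream start of Cntnap2, not printed, had 1 match to CANNTG and 1 to ACAATG. Of all windows, 4.84% held TAATTA, 10.7% ACAATG, 16.5% ACAAAG and 3.17% TGTTTAC. A match describes the letters of the window and is no evidence of binding.

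Nrxn2 (mm10 chr19:6418731-6544169, plus strand, 28 exon blocks) encodes neurexin 2, a presynaptic receptor for neuroligins and LRRTM proteins. It was at 46.9, 46.0 and 45.9 CPM in the iGABA libraries, 481, 498 and 417 CPM in the GAD67 libraries and 3.55, 3.69 and 3.78 CPM in the MEF libraries. The iGABA libraries agreed closely with each other, and the 3 groups stood apart. Nrxn2 was 12.6-fold higher in iGABA than in MEF cells (95% interval 11.0 to 14.3, edgeR adjusted p = 4.28e-13) and 127-fold higher in GAD67 cells than in fibroblasts (111 to 145, edgeR adjusted p = 1.21e-15). Its level in iGABA cells was 9.94% of that in GAD67 cells (log2 fold change -3.33, 95% interval -3.48 to -3.18, edgeR adjusted p = 1.41e-13). Exons of Nrxn2 share 207 bases with Gm14964 and 669 bases with Slc22a12 on the opposite strand, and the strand setting of the counting is not given in the sources used here. Slc22a12 held 1 count over the 9 libraries and Gm14964 held 4518.

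Nrxn3 (chr12:88722876-90334935, plus strand, 28 exon blocks) encodes neurexin 3, which has the same partners across the cleft. Its level was 88.8, 99.6 and 81.7 CPM in iGABA libraries, 617, 611 and 585 CPM in GAD67 libraries and 3.22, 2.53 and 2.60 CPM in MEF libraries. All iGABA libraries were far above every MEF library and far below every GAD67 library. The iGABA level was 32.5-fold that of MEF cells (27.8 to 38.0, edgeR adjusted p = 1.28e-13), and the GAD67 level was 218-fold that of MEF cells (185 to 257, edgeR adjusted p = 2.18e-15). In iGABA cells Nrxn3 stood at 14.9% of its GAD67 level (log2 fold change -2.75, 95% interval -2.92 to -2.58, edgeR adjusted p = 2.43e-12).

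The balance between the neurexin pair differed among the groups. Nrxn3 made up 67.5, 70.4 and 66.2% of the summed RPKM of Nrxn2 and Nrxn3 in iGABA libraries, 58.5, 57.4 and 60.7% in GAD67 libraries and 50, 43.1 and 43.1% in MEF libraries. The groups did not overlap, with iGABA highest and MEF lowest. The mean share was 22.7 percentage points higher in iGABA than in MEF cells and 9.18 points higher in iGABA than in GAD67 cells, and its mean was 58.9% in GAD67 and 45.4% in MEF cells. An exact two-sided permutation test gave p = 0.1 for each, the smallest that 3 libraries against 3 allow. In all, 21 differences of shares were tested in this way by exact permutation, and each had p = 0.1 before and after Benjamini-Hochberg adjustment, so none could pass 0.05. The summed neurexin level was 10.5 ± 0.717 RPKM in iGABA, 81.8 ± 4.41 RPKM in GAD67 and 0.488 ± 0.0235 RPKM in MEF cells (SD, n = 3 each).

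Cntnap2 (chr6:45060061-47301369, plus strand, 26 exon blocks) encodes Caspr2. It had 8.26, 9.51 and 8.69 CPM in iGABA libraries, 47.0, 53.9 and 36.7 CPM in GAD67 libraries and 0.293, 0.296 and 0.211 CPM in MEF libraries. The spread was widest in GAD67 libraries, whose lowest value still exceeded every iGABA value. iGABA cells had 33.0-fold the level of MEF cells (22.9 to 47.4, edgeR adjusted p = 4.06e-10), and the GAD67 level was 171-fold that of MEF cells (124 to 236, edgeR adjusted p = 1.29e-12). The direction of both was fixed by the low-count filter, since the MEF libraries held 7 to 9 counts. iGABA cells held 19.2% of the GAD67 level (log2 fold change -2.38, 95% interval -2.66 to -2.10, edgeR adjusted p = 1.47e-09).

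Nlgn2 (chr11:69823122-69837784, minus strand, 8 exon blocks) encodes neuroligin 2, the neuroligin of inhibitory synapses, and it departed from the other members in being abundant in all 3 kinds of cells. It was at 509, 540 and 511 CPM in iGABA libraries, 619, 590 and 609 CPM in GAD67 libraries and 256, 243 and 217 CPM in MEF libraries. The MEF libraries were the lowest, and every iGABA library lay below every GAD67 library. Nlgn2 was 2.18-fold higher in iGABA than in MEF cells (1.97 to 2.40, edgeR adjusted p = 3.2e-09) and 2.54-fold higher in GAD67 cells than in fibroblasts (2.30 to 2.80, edgeR adjusted p = 3.35e-10). The iGABA level was 85.8% of the GAD67 level, a log2 fold change of -0.22 (95% interval -0.36 to -0.08, edgeR adjusted p = 0.00701). With scaling by library size alone, which shifted all genes by a median of 0.193 in this comparison, the Nlgn2 difference was -0.03 and lost its call (edgeR adjusted p = 0.721).

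Nlgn3 (chrX:101299168-101325963, plus strand, 10 exon blocks) encodes neuroligin 3, found at inhibitory and excitatory synapses. Its level was 34.0, 41.7 and 28.1 CPM in iGABA libraries, 187, 183 and 196 CPM in GAD67 libraries and 6.66, 6.65 and 7.55 CPM in MEF libraries. The iGABA libraries overlapped neither other group. It was 4.98-fold higher in iGABA than in MEF cells (4.10 to 6.03, edgeR adjusted p = 1.77e-09) and 27.1-fold higher in GAD67 cells than in fibroblasts (22.2 to 32.9, edgeR adjusted p = 7.7e-13). iGABA cells held 18.4% of the GAD67 level (log2 fold change -2.44, 95% interval -2.68 to -2.20, edgeR adjusted p = 2.22e-10).

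The Nlgn3 level is uncertain, because 3823 of its exon bases, or 41.2% of its exon length, also belong in the count table to Gm21986, a gene on the same strand. Gm21986 itself was at 33.8 to 45.9 CPM in iGABA, 126 to 139 CPM in GAD67 and 12.3 to 14.9 CPM in MEF libraries. When the counts of both genes were summed, the log2 fold changes were 1.85 for iGABA against MEF, 3.97 for GAD67 against MEF and -2.12 for iGABA against GAD67, against 2.31, 4.76 and -2.44 for Nlgn3 alone. All 3 calls held with edgeR, with adjusted p of 2.57e-09, 9.94e-13 and 3.55e-10. The summed counts were added as an alternative after the data were seen.

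Nlgn1 (chr3:25431811-26133734, minus strand, 6 exon blocks) encodes neuroligin 1, the neuroligin of excitatory synapses, and it was the least abundant of the 3. It had 3.54, 3.56 and 3.82 CPM in iGABA libraries, 8.61, 7.45 and 8.44 CPM in GAD67 libraries and 0.549, 0.461 and 0.785 CPM in MEF libraries. The groups were ordered as for the other neuroligins, with no overlap. Nlgn1 was 5.98-fold higher in iGABA than in MEF cells (4.48 to 8.00, edgeR adjusted p = 3.88e-08) and 13.4-fold higher in GAD67 cells than in fibroblasts (10.2 to 17.7, edgeR adjusted p = 2.97e-10). iGABA cells reached 44.5% of the GAD67 level (log2 fold change -1.17, 95% interval -1.47 to -0.87, edgeR adjusted p = 4.38e-06).

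**Figure D2:**
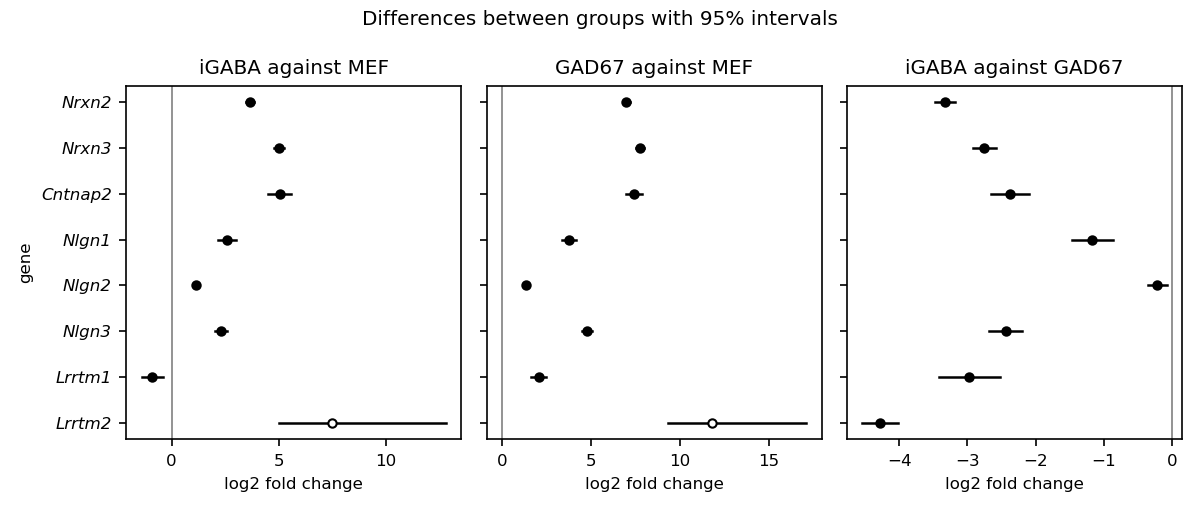
Log2 fold change of each gene in the 3 comparisons, with 95% intervals as bars and a grey line at 0. Filled points are edgeR estimates, and open points for Lrrtm2 against MEF are ratios of summed counts with exact counting intervals, since the MEF libraries held 1 count in all. Against GAD67 cells, iGABA values ran from -4.28 for Lrrtm2 to -0.22 for Nlgn2.

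Within the neuroligin family the share of Nlgn2 was lower in GAD67 cells than in the other groups. It took 95.2, 94.6 and 95.8% of the summed neuroligin RPKM in iGABA libraries, 82.8, 82.6 and 82.0% in GAD67 libraries and 98.1, 98.1 and 97.4% in MEF libraries. No library of one group fell within the range of another. Nlgn3 made up 3.94 ± 0.629% in iGABA, 16 ± 0.437% in GAD67 and 1.79 ± 0.279% in MEF cells (SD, n = 3 each), and Nlgn1 made up 0.885%, 1.47% and 0.331% in the same order of groups. If only the 5448 exon bases not shared with Gm21986 were counted as the length of Nlgn3, its mean share was 6.52% in iGABA, 24.5% in GAD67 and 3.01% in MEF cells, and the order of the groups held. The exact permutation p of each difference was 0.1, the smallest possible.

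Lrrtm2 (chromosome 18, minus strand, 2 exon blocks) encodes a postsynaptic neurexin receptor of excitatory synapses, and it was nearly absent from fibroblasts. It had 93, 75 and 61 counts in iGABA libraries, 1517, 1451 and 1403 counts in GAD67 libraries and 0, 1 and 0 counts in MEF libraries. In CPM these were 2.30, 1.79 and 1.91 in iGABA libraries and 38.8, 38.5 and 39.6 in GAD67 libraries. The GAD67 libraries agreed closely, and each iGABA library was far below them. With 1 count in all MEF libraries, the ratio of summed counts was 182 for iGABA over MEF (95% counting interval 32.3 to 7219.9) and 3535.5 for GAD67 over MEF (634 to 139677.9), and the edgeR adjusted p was 2.68e-09 and 9.7e-14. The direction of both was fixed by the low-count filter. Lrrtm2 had the lowest iGABA level of the 8 genes relative to GAD67 cells, at 5.15% (log2 fold change -4.28, 95% interval -4.54 to -4.02, edgeR adjusted p = 2.15e-12). Lrrtm2 lies inside Ctnna1, the alpha-catenin gene of the opposite strand, without shared exon bases. Ctnna1 had another order of groups, at 104 CPM in iGABA, 47.0 CPM in GAD67 and 326 CPM in MEF cells.

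Lrrtm1 (chr6:77242689-77257791, plus strand, 3 exon blocks) encodes a related postsynaptic receptor, and it was the member lower in iGABA than in MEF cells. It was at 1.56, 1.03 and 1.25 CPM in iGABA libraries, 9.58, 12.6 and 7.85 CPM in GAD67 libraries and 2.49, 2.50 and 2.17 CPM in MEF libraries. These rest on 40 to 63 counts in an iGABA library, 278 to 475 in a GAD67 library and 68 to 76 in a MEF library. Every iGABA library was below every MEF library. The iGABA level was 53.7% of the MEF level (log2 fold change -0.90, 95% interval -1.40 to -0.40, edgeR adjusted p = 0.00297). With scaling by library size alone, which shifted all genes by a median of 0.416, the value was -0.48 and lost its call (edgeR adjusted p = 0.0784). Lrrtm1 was 4.20-fold higher in GAD67 cells than in fibroblasts (3.13 to 5.63, edgeR adjusted p = 3.27e-07), and its iGABA level was 12.8% of the GAD67 level (log2 fold change -2.97, 95% interval -3.41 to -2.52, edgeR adjusted p = 1.92e-08).

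Lrrtm1 lies inside Ctnna2, the neuronal alpha-catenin gene, on the opposite strand and without shared exon bases. Ctnna2 was at 9.49 ± 0.590 CPM in iGABA, 324 ± 19.3 CPM in GAD67 and 20.2 ± 0.741 CPM in MEF cells (SD, n = 3 each), so it too was lower in iGABA than in MEF cells (log2 fold change -1.08, edgeR adjusted p = 1.07e-08) and highest in GAD67 cells. Whether reads of the host reached the Lrrtm1 count was not tested. Lrrtm1 made up 55.9, 51.7 and 55.1% of the summed RPKM of Lrrtm1 and Lrrtm2 in iGABA libraries, 31.6, 37.9 and 27% in GAD67 libraries and 100, 99.3 and 100% in MEF libraries. Lrrtm2 was thus the larger part in GAD67 cells, and the pair was closer to even in iGABA cells. Summed over this pair, the level was 0.775 ± 0.134 RPKM in iGABA, 10.2 ± 0.697 RPKM in GAD67 and 0.789 ± 0.0629 RPKM in MEF cells (SD, n = 3 each). The iGABA and MEF sums overlapped. Lrrtm3 and Lrrtm4 are not in these sums. Lrrtm3 was at 0.259 CPM in iGABA, 5.25 CPM in GAD67 and 3.24 CPM in MEF cells (log2 fold change -3.61 for iGABA against MEF, edgeR adjusted p = 1.96e-06). Lrrtm4 was at 0.712, 6.29 and 0.566 CPM in the same order.

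**Figure D3:**
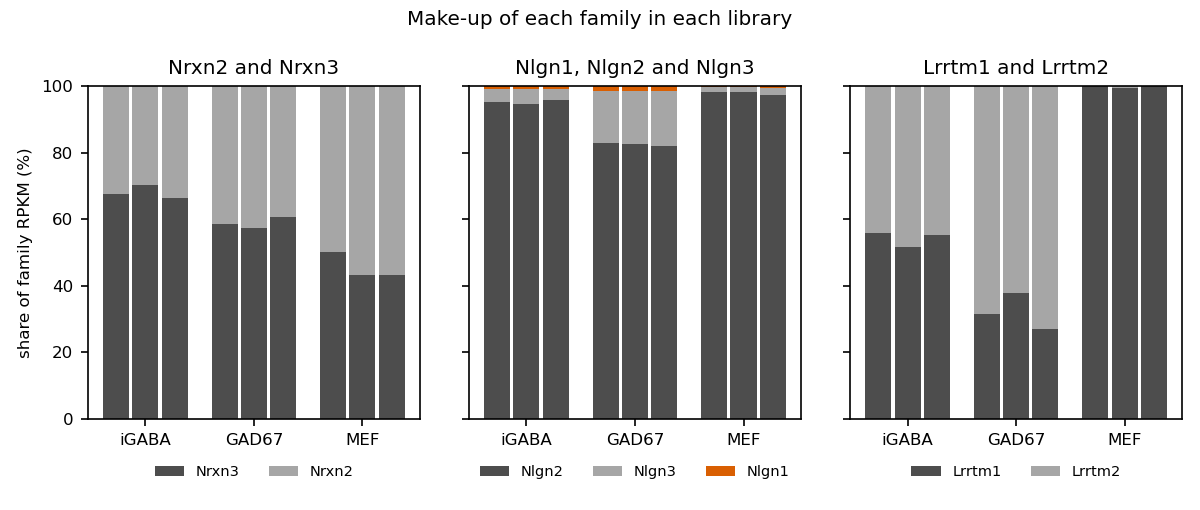
Share of each family's summed RPKM held by each gene, in percent, with 1 stacked bar per library and iGABA, GAD67 and MEF libraries from left to right. Sums cover only the genes shown. Nrxn3 held 67.5, 70.4 and 66.2% of the neurexin sum in iGABA libraries, and Nlgn2 held most of the neuroligin sum in all 9 libraries. Lrrtm1 held nearly all of the sum of Lrrtm1 and Lrrtm2 in MEF libraries.

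Per length of exon, Nlgn2 was the most abundant of the 8 genes in all 3 groups, at 89.9 ± 3.09 RPKM in iGABA, 105 ± 2.55 RPKM in GAD67 and 41.3 ± 3.4 RPKM in MEF cells (SD, n = 3 each). In iGABA cells it was followed by Nrxn3 at 7.17 RPKM, Nlgn3 at 3.73, Nrxn2 at 3.35, Cntnap2 at 1.23, Nlgn1 at 0.834, Lrrtm1 at 0.422 and Lrrtm2 at 0.353 RPKM. The libraries of Nlgn3 and Nrxn2 overlapped there, and so did those of Lrrtm1 and Lrrtm2. In GAD67 cells the order after Nlgn2 was Nrxn3 at 48.1 RPKM, Nrxn2 at 33.7, Nlgn3 at 20.3, Lrrtm2 at 6.88, Cntnap2 at 6.39, Lrrtm1 at 3.30 and Nlgn1 at 1.87 RPKM, with an overlap of Lrrtm2 and Cntnap2. In MEF cells Lrrtm1 at 0.787 and Nlgn3 at 0.750 RPKM overlapped, followed by Nrxn2 at 0.266, Nrxn3 at 0.222, Nlgn1 at 0.137, Cntnap2 at 0.0371 and Lrrtm2 at 0.00194 RPKM. The other neighbours in these orders did not overlap. The place of Nlgn3 depends on the length used. Over the exon bases not shared with Gm21986 it was at 5.17 to 7.65 RPKM in iGABA libraries, which overlapped Nrxn3 at 6.51 to 7.93 RPKM, and at 33.5 to 36 RPKM in GAD67 libraries, which overlapped Nrxn2 at 30.2 to 36.1 RPKM. In MEF libraries it was then at 1.22 to 1.39 RPKM, above Lrrtm1 at 0.717 to 0.824 RPKM.

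The level of neurexins relative to neuroligins was therefore far apart among the groups. The ratio of summed neurexin to summed neuroligin RPKM was 0.113, 0.114 and 0.107 in iGABA libraries, 0.651, 0.688 and 0.598 in GAD67 libraries and 0.0114, 0.0109 and 0.0125 in MEF libraries. The groups did not overlap, and the iGABA ratio lay between those of the other groups. From counts without division by length the mean ratio was 0.244 in iGABA, 1.33 in GAD67 and 0.0263 in MEF cells, so whether it lies below or above 1 in GAD67 cells depends on the use of length. The neuroligin sum itself was 94.4 ± 3.73 RPKM in iGABA, 127 ± 3.14 RPKM in GAD67 and 42.2 ± 3.31 RPKM in MEF cells (SD, n = 3 each), and Nlgn2 was most of it. The ratio concerns the 5 genes measured here and describes RNA, not protein.

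The genes also differ in size. From first to last exon base, Cntnap2 spans 2241 kb, Nrxn3 1612 kb, Nlgn1 702 kb and Nrxn2 125 kb, where the median of the genes tested was 17.8 kb. Nlgn3 spans 26.8 kb, Lrrtm1 15.1 kb, Nlgn2 14.7 kb and Lrrtm2 6.01 kb. The iGABA level was 9.94 to 44.5% of the GAD67 level among the 4 longest genes and 5.15 to 85.8% among the 4 shortest, so the ranges overlapped.

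Within GAD67 cells, replicate 9 had the lowest level of Nrxn2, Nrxn3, Cntnap2 and Lrrtm1, the highest of Nlgn3 and Lrrtm2, and the middle value of Nlgn1 and Nlgn2. The same library had the highest sum of 5 endothelial markers, at 39.3 CPM, against 21.4 CPM in replicate 7 and 11.5 CPM in replicate 8, and all 5 markers were at 1 CPM or more on average. Its 7 markers of glutamatergic cortical neurons summed to 66.1 CPM, against 49.3 CPM in replicate 7 and 40.5 CPM in replicate 8. The part of these cells in the member levels was not tested, and all member calls between groups held when replicate 9 was left out of the edgeR fit.

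Genes with the most similar pattern were named by the smallest distance between log2 levels over the 9 libraries, each centred on its own mean. For Nrxn2 the nearest gene was Asic1, an acid-sensing ion channel gene, at a distance of 0.30, followed by Aspdh and Crmp1. For Nrxn3 these were Cadps, a gene of vesicle priming, at 0.62, then Pnoc and B3gat1, and for Cntnap2 they were Crb1 and Kcnd3 at 0.74 each and Sult4a1. Celf4, an RNA-binding protein gene, was nearest to Nlgn3 at 0.42, and Gpr75 was nearest to Nlgn1 at 0.57. Among the 3 genes nearest to Nlgn2 were Tsc1 and Chfr, at 0.14 each. Lrrtm1 was nearest to Reps2 at 0.56, and Lrrtm2 to Ttbk1 at 0.84, Mast1 at 0.93 and Rbfox3 at 1.02. These distances describe likeness over 3 groups of libraries and carry no test.

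The partners of the 8 proteins were described by 7 gene lists, chosen with earlier results of these data known. For single partner genes, the value in parentheses before an adjusted p is the log2 fold change. Of 91 listed genes, 90 were tested, and C1ql2, with 26 counts over the 9 libraries, was not. In iGABA against MEF cells, 57 were higher, 22 lower and 11 did not pass edgeR's test, beside a background of 42.1% higher and 39.7% lower. In GAD67 against MEF cells, 73 were higher, 15 lower and 2 did not pass, beside 43.1% and 43.8%. In iGABA against GAD67 cells, 18 were higher, 66 lower and 6 did not pass, beside 41.3% and 39.3%. The median log2 fold change over the lists was 0.95, 2.59 and -1.56 in the 3 comparisons. The first of these was 0.78 with Nxph2, which had 0 MEF counts, set at its lower bound. Slitrk3, Nxph2, Khdrbs2 and Cntnap5c, for instance, passed the low-count filter only through their GAD67 libraries. Rbfox3 and Iqsec3, for instance, passed through their iGABA and GAD67 libraries. The direction of such genes against the group or groups with low counts was fixed in advance, and they are part of these counts and medians.

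**Figure D4:**
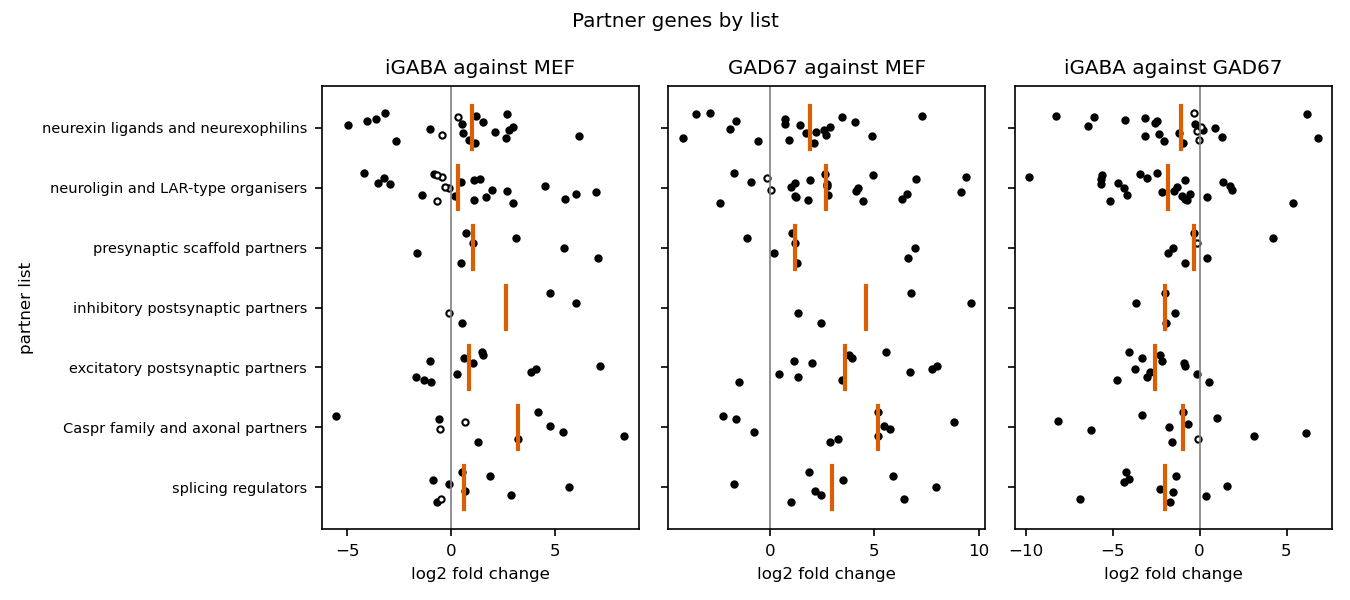
Log2 fold change of the tested genes of 7 partner lists in the 3 comparisons, with filled points for genes at edgeR adjusted p under 0.05, open points for the others and an orange bar at the list's median. Genes with 3 counts or fewer in a group are left out of the points but not of the median. The 4 inhibitory postsynaptic partners were all lower in iGABA than in GAD67 cells, where 39.3% of all genes were lower. Of the 4, 3 were higher in iGABA than in MEF cells, where 42.1% of all genes were higher.

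The list of neurexin ligands and neurexophilins also held ligands of latrophilins, such as Flrt2. Of its 22 tested genes, 14 were higher and 6 lower in iGABA than in MEF cells, beside 42.1% and 39.7% of all genes. Against GAD67 cells, 5 were higher and 13 lower, beside 41.3% and 39.3% of all genes. Cbln1, a cerebellin, which is a secreted ligand of neurexins, was at 50.3 ± 8.68 CPM in iGABA, 21.0 ± 4.58 CPM in GAD67 and 0.698 ± 0.128 CPM in MEF cells (SD, n = 3 each), so it was higher in iGABA than in GAD67 cells (log2 fold change 1.26, edgeR adjusted p = 4.68e-06). The neurexophilins, secreted ligands of alpha-neurexins, were split. Nxph1 was at 1.45 CPM in iGABA, 101 CPM in GAD67 and 0.644 CPM in MEF cells (-6.10 for iGABA against GAD67, edgeR adjusted p = 2.01e-13), whereas Nxph3 was at 32.0, 0.433 and 5.08 CPM in the same order (6.19, edgeR adjusted p = 2.09e-13). Nxph2 had 5 counts in iGABA, 1667 in GAD67 and 0 in MEF libraries, so its call as higher in iGABA than in MEF cells rests on those 5 counts. It was at least 449-fold higher in GAD67 cells, against 3 counts over the MEF group. Flrt2, a ligand of latrophilins, was at 2.51 CPM in iGABA, 213 CPM in GAD67 and 77.7 CPM in MEF cells, and was lower in iGABA cells than in either other group (edgeR adjusted p = 3.74e-12 against MEF and 3.85e-13 against GAD67).

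The list of neuroligin and LAR-type organisers held 24 genes, among them LAR-type phosphatases such as Ptprd. In iGABA against MEF cells, 13 were higher and 6 lower, beside 42.1% and 39.7% of all genes. In iGABA against GAD67 cells, 5 were higher and 19 lower, beside 41.3% and 39.3% of all genes. The list's median log2 fold change for iGABA against MEF was 0.31, beside 0.05 over all genes. Lrrc4b, a postsynaptic ligand of LAR-type phosphatases, was at 70.8 ± 2.08 CPM in iGABA, 323 ± 14.2 CPM in GAD67 and 0.580 ± 0.170 CPM in MEF cells (SD, n = 3 each; 6.94 for iGABA against MEF, edgeR adjusted p = 1.93e-14). Slitrk3, which acts at inhibitory synapses with the phosphatase made by Ptprd, was at 0.0904 CPM in iGABA, 88.9 CPM in GAD67 and 0.135 CPM in MEF cells (-9.80 for iGABA against GAD67, edgeR adjusted p = 3.35e-12). Ptprd was at 12.9 CPM in iGABA and 150 CPM in MEF cells (-3.53, edgeR adjusted p = 4.2e-12). Mdga1, whose protein binds neuroligin 2 and keeps neurexins from it, was higher in iGABA than in GAD67 cells, at 71.0 against 19.4 CPM (1.88, edgeR adjusted p = 1.29e-09). Il1rap, which has a form that binds the Ptprd phosphatase, was at 149 CPM in iGABA, 3.64 CPM in GAD67 and 19.2 CPM in MEF cells (5.36 for iGABA against GAD67, edgeR adjusted p = 7.38e-14).

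Of 7 presynaptic scaffold partners, 6 were higher and 1 lower in iGABA than in MEF cells, beside 42.1% and 39.7% of all genes. Against GAD67 cells, 2 were higher, 4 lower and 1 did not pass, beside 41.3% higher and 39.3% lower among all genes. Apba2, a Mint adaptor, was at 434 ± 21.4 CPM in iGABA, 317 ± 2.41 CPM in GAD67 and 3.25 ± 0.389 CPM in MEF cells (SD, n = 3 each), and was higher in iGABA cells than in either (7.06 against MEF, edgeR adjusted p = 2.7e-15, and 0.45 against GAD67, edgeR adjusted p = 1.21e-05). Cask, the kinase-like scaffold that binds the neurexin tail, went the other way, at 45.0 CPM in iGABA, 160 CPM in GAD67 and 140 CPM in MEF cells (-1.64 against MEF, edgeR adjusted p = 3.14e-11, and -1.83 against GAD67, edgeR adjusted p = 1.05e-11).

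On the postsynaptic side of inhibitory synapses, Lhfpl4, which links GABA-A receptors to neuroligin 2, was at 55.6 ± 5.21 CPM in iGABA, 223 ± 14.4 CPM in GAD67 and 2.09 ± 0.273 CPM in MEF cells (SD, n = 3 each). It was higher in iGABA than in MEF cells by 4.73 on the log2 scale (edgeR adjusted p = 3.89e-13) and lower than in GAD67 cells by a log2 fold change of -2.00 (edgeR adjusted p = 5.15e-11). Iqsec3, whose protein binds gephyrin, was at 5.05 CPM in iGABA, 63.6 CPM in GAD67 and 0.0808 CPM in MEF cells. Gphn, the gephyrin gene, was named after its values were seen as the list's gene that did not pass the test against MEF, with 18.2 CPM in iGABA and 19.5 CPM in MEF cells (log2 fold change -0.10, 95% interval -0.27 to 0.07, edgeR adjusted p = 0.24).

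Of 12 excitatory postsynaptic partners, 8 were higher and 4 lower in iGABA than in MEF cells, beside 42.1% and 39.7% of all genes. Against GAD67 cells, 1 was higher and 11 lower, beside 41.3% and 39.3% of all genes. Dlgap3, a scaffold between PSD-95 and Shank proteins, was at 68.3 ± 5.22 CPM in iGABA, 123 ± 11.4 CPM in GAD67 and 0.470 ± 0.0638 CPM in MEF cells (SD, n = 3 each; 7.16 for iGABA against MEF, edgeR adjusted p = 6.68e-14). Shank2 was at 7.71 CPM in iGABA and 131 CPM in GAD67 cells (-4.09, edgeR adjusted p = 2.51e-13). Shank2 is a scaffold of the postsynaptic density, and Homer1 ties Shank proteins to glutamate receptors. Homer1 was lower in iGABA than in MEF cells, at 11.7 against 24 CPM (-1.03, edgeR adjusted p = 2.47e-08).

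The list of the Caspr family and its axonal partners held 11 genes. Of these, 7 were higher and 2 lower in iGABA than in MEF cells, beside 42.1% and 39.7% of all genes. Against GAD67 cells, 3 were higher and 7 lower, beside 41.3% and 39.3% of all genes. Cntn2, whose protein is the partner of Caspr2 on axons, was at 1306.6 ± 146 CPM in iGABA, 149 ± 0.690 CPM in GAD67 and 4.13 ± 0.288 CPM in MEF cells (SD, n = 3 each), so it exceeded GAD67 cells by 3.14 on the log2 scale (edgeR adjusted p = 8.65e-13) where Cntnap2 was lower than in GAD67 cells. Cntnap1, the Caspr of the paranode, was at 121 CPM in iGABA, 1.76 CPM in GAD67 and 2.95 CPM in MEF cells (6.11 against GAD67, edgeR adjusted p = 2.39e-13). Cntnap4, a relative found in interneurons, was at 0.565 CPM in iGABA and 44.9 CPM in GAD67 cells (-6.27, edgeR adjusted p = 1.04e-10). Beside these values, 5 markers of Schwann and neural crest cells summed to 378 to 392 CPM in iGABA, 16.2 to 16.6 CPM in GAD67 and 18.8 to 20.1 CPM in MEF libraries. In iGABA cells 3 of these 5 were at 1 CPM or more, and Foxd3 was at 0 counts. The part of such cells in the Caspr family values was not tested.

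Splicing factors that act on neurexin and neuroligin transcripts were mostly lower in iGABA than in GAD67 cells. Of 10, 8 were lower and 2 higher, beside 39.3% lower and 41.3% higher among all genes. Against MEF cells, 6 were higher in iGABA cells, 3 lower and 1 did not pass, beside 42.1% higher and 39.7% lower among all genes. Nova2, a neuronal splicing factor, was at 99.8 ± 3.74 CPM in iGABA, 478 ± 12.6 CPM in GAD67 and 1.97 ± 0.210 CPM in MEF cells (SD, n = 3 each; 5.67 for iGABA against MEF, edgeR adjusted p = 6.22e-15). Khdrbs2, the gene of a neuronal STAR protein, was at 0.131 CPM in iGABA, 16.2 CPM in GAD67 and 0.185 CPM in MEF cells (-6.90 for iGABA against GAD67, edgeR adjusted p = 1.53e-09). Ptbp1, the splicing repressor of non-neuronal cells, was at 246 CPM in iGABA, 81.4 CPM in GAD67 and 270 CPM in MEF cells, and Ptbp2, its neuronal relative, was at 20.7, 430 and 38.0 CPM in the same order. Ptbp1 was higher (1.60, edgeR adjusted p = 2.37e-11) and Ptbp2 lower (-4.38, edgeR adjusted p = 5.91e-14) in iGABA than in GAD67 cells. Which splice forms of the 8 genes these cells made was not analysed here.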

How the data were processed

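RNA was measured in 9 samples of 3 groups, taken from the labels. The deposited table holds whole-number read counts per gene, not normalised. The authors' tools, per the submitters' processing notes, were BWA 0.7.2, featureCounts and DESeq 1.10.1 with mm10. Their roles, the annotation release and the strand setting were not given in the sources used here. GENCODE vM21 gave symbols for 35449 of 37224 genes.

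Counts were filtered with filterByExpr (minimum count 10, minimum total 15), scaled by TMM and tested in edgeR 4.0.16 (quasi-likelihood, R 4.3.3), fitted to all 9 libraries, with Benjamini-Hochberg adjustment over the 18085 genes tested. A call is an adjusted p under 0.05. The shared coefficient of variation was 7.91%, and the test was first tried on simulated data. RPKM used the exon length of the deposited table, and shares were tested by exact permutation in scipy 1.17.1. Likeness of patterns used log2(CPM + 0.05). Partners named were, per list and comparison, up to 3 genes higher and 3 lower with the largest change among those called with groups that did not overlap, and of these a selection is given. Some items are not reported here. Members and lists were chosen with earlier results of these data known. Alternatives were other scalings, DESeq2 1.42.0, no filter, fits of 2 groups, leaving out each library, counts in place of RPKM, and, added after seeing the data, the exons shared by Nlgn3. Libraries of a group differed by more than counting noise, with correlations of log2 CPM of 0.989 to 0.995. Whether replicates came from separate cultures or animals is not stated, and the p-values measure a spread that may be technical.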

Additional observations from a re-analysis of the deposited data

How the results depend on the processing

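Across 18 alternatives, 1168 of 1176 recomputed values kept their result and none reversed. A fold change was kept if its direction and call held, and a difference of shares if its direction held. A count of genes was kept if it stayed within a set fold of the main count. A ratio was kept if it moved by less than the spread between libraries. For the 8 genes, 24 fold changes were recomputed to 339 values, of which 337 kept direction and call. These include fits that left out a library of a group outside the comparison, which can move the value little. The 2 exceptions, both with library size alone as scaling, were Lrrtm1 for iGABA against MEF and Nlgn2 for iGABA against GAD67. The count of members lower in iGABA than in MEF cells was then 0. Relative to TMM, it shifted the log2 fold changes of all genes by a median of 0.416 for iGABA against MEF, 0.222 for GAD67 against MEF and 0.193 for iGABA against GAD67.

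The ratio of neurexin to neuroligin level depended on length. From counts without division by length it was 0.244 in iGABA, 1.33 in GAD67 and 0.0263 in MEF cells, and with the unshared exon length of Nlgn3 it was 0.58 in GAD67 cells. The order of the groups held. Leaving out each library in turn changed no call of a member. Leaving out MEF replicate 1 gave 1 inhibitory partner lower in iGABA than in MEF cells, where 0 passed with all libraries. No paired analysis was possible because the labels number the libraries without repeats, so the groups share no replicate number. Low counts limit Lrrtm2 in MEF cells to a counting interval.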

Other observations

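Some partners of the 8 genes differed in iGABA cells from both other groups in the same direction by edgeR's test. Kcna1, a potassium channel gene whose product gathers with Caspr2 on axons, was at 0.0714 CPM in iGABA, 0.719 CPM in GAD67 and 3.43 CPM in MEF cells (means of n = 3 each, log2 fold change -5.54 for iGABA against MEF, edgeR adjusted p = 5.7e-09). Its iGABA mean was below the level of 3 counts, at 0.0717 to 0.0938 CPM in iGABA libraries, so the size of the Kcna1 change is uncertain. Lin7b, a scaffold that joins Cask, was at 15.6 CPM in iGABA, 0.830 CPM in GAD67 and 1.83 CPM in MEF cells (log2 fold change 4.22 for iGABA against GAD67, edgeR adjusted p = 1.03e-09). Dlg2, the gene of the scaffold PSD-93, was at 2.33 CPM in iGABA, 63.1 CPM in GAD67 and 5.86 CPM in MEF cells (log2 fold change -4.75 for iGABA against GAD67, edgeR adjusted p = 8.15e-11).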
